A study of Mus musculus with 24 samples.

Results

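The 46 genes described here encode the machinery with which a cell copies its DNA and then divides, and they were taken by gene name, with no threshold on their values, from a table of 55487 genes. They fall into 6 roles, namely origin licensing and helicase (12 genes), DNA synthesis and nucleotides (7), regulators of G1 and S phase (8), mitotic entry (7), spindle, kinetochore and checkpoint (10) and proliferation markers (2). Each was found once in the table. RNA was measured by bulk RNA barcoding and sequencing (BRB-seq), which counts reads at the 3′ end of mRNAs, in AML-12 cells, an established mouse hepatocyte line. Each of 6 groups had 4 libraries. BSA cells received albumin carrier and no esiRNA, and PAL cells 0.25 mM palmitate, a saturated fatty acid, for 48 hours and no esiRNA. All remaining groups received the same palmitate and, for the last 24 hours, a lipofectamine transfection with endoribonuclease-prepared siRNA (esiRNA). CON received 200 nM esiRNA against *Egfp*, BMAL1 100 nM against *Bmal1*, CHREBP 100 nM against *Chrebp*, and BOTH 200 nM in total against the 2 genes. The palmitate medium lacked dexamethasone and held charcoal-treated serum, and the medium of the BSA cells is not stated apart from the carrier. The cells are 1 line, and it is not stated whether the 4 libraries of a group came from separate cultures on separate days, so the *P* values measure the spread between these libraries, which may be technical.

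Before a cell divides, the MCM helicase is loaded at replication origins in G1, cyclin E and CDK2 drive the start of S phase, and enzymes of nucleotide synthesis supply the building blocks. Later, cyclins A and B with CDK1 bring the cell into mitosis, where the spindle, the kinetochores and the checkpoint kinases separate the chromosomes. Transcription of the S phase genes is classically driven by E2F factors, and that of the G2 and M phase genes by the MuvB complex with B-MYB and FOXM1, which act through CHR elements and the NF-Y bound box. The inhibitor p21, encoded by *Cdkn1a*, restrains the cyclin-dependent kinases. Adult hepatocytes divide rarely in the liver, whereas AML-12 cells divide in culture. In bulk RNA, a smaller share of cells in S phase or mitosis and less RNA of these genes per cell cannot be told apart.

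Library totals ranged from 5399700 to 11237474 reads counted in genes, and members had between 13 and 16316 reads in a library. The targeted genes were counted low throughout. *Arntl*, the table's name for *Bmal1*, had 44.7 ± 11.6 normalized counts in CON (SD, n = 4), 26.0 ± 4.82 in BMAL1 and 22.8 ± 6.64 in BOTH. *Mlxipl*, which is *Chrebp*, had 35.6 ± 7.26 in CON, 25.9 ± 4.75 in CHREBP and 17.0 ± 4.91 in BOTH. The ranges of CON overlapped those of the silenced groups for both genes, apart from *Mlxipl* in BOTH, whose highest library at 21.9 lay below the lowest of CON at 29.0. Normalized counts are reads divided by the DESeq2 size factor of the library, and all counts given for single libraries, in the order of replicates 1 to 4, are normalized counts. The libraries of BOTH differed most among themselves, with a chi-square per degree of freedom over genes of up to 23.1 between replicates 2 and 4, against at most 7.53 within any other group. All 10 hepatocyte markers were above the floor of 3 reads in some library, but *Apoa1* never exceeded 1.88 CPM, that is, reads scaled to a fixed library total. Of the fibroblast, macrophage and endothelial markers, 2 of 6, 3 of 5 and 1 of 5 exceeded the floor in any library, and *Col1a2*, *Pdgfrb*, *Adgre1*, *Cdh5*, *Kdr* and *Tek* were at 0 in all. Whether the counting used strand is not stated, and 19 members overlap a gene on the other strand and 7 a gene on the same strand, so shared reads cannot be told apart there. Library positions were not balanced. BSA and PAL were in column 1, CON and BMAL1 in column 2, CHREBP and BOTH in column 3, so the column and the *Chrebp* esiRNA cannot be told apart in CHREBP or BOTH against CON, nor the column and the transfection in CON against PAL. BSA, CON and CHREBP filled rows A to D and PAL, BMAL1 and BOTH rows E to H. Rows thus cannot be told apart from palmitate between PAL and BSA, nor from the transfection between CON and PAL. Nor can they be told apart from the *Bmal1* esiRNA in BMAL1 or BOTH against CON.

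**Figure D1:**
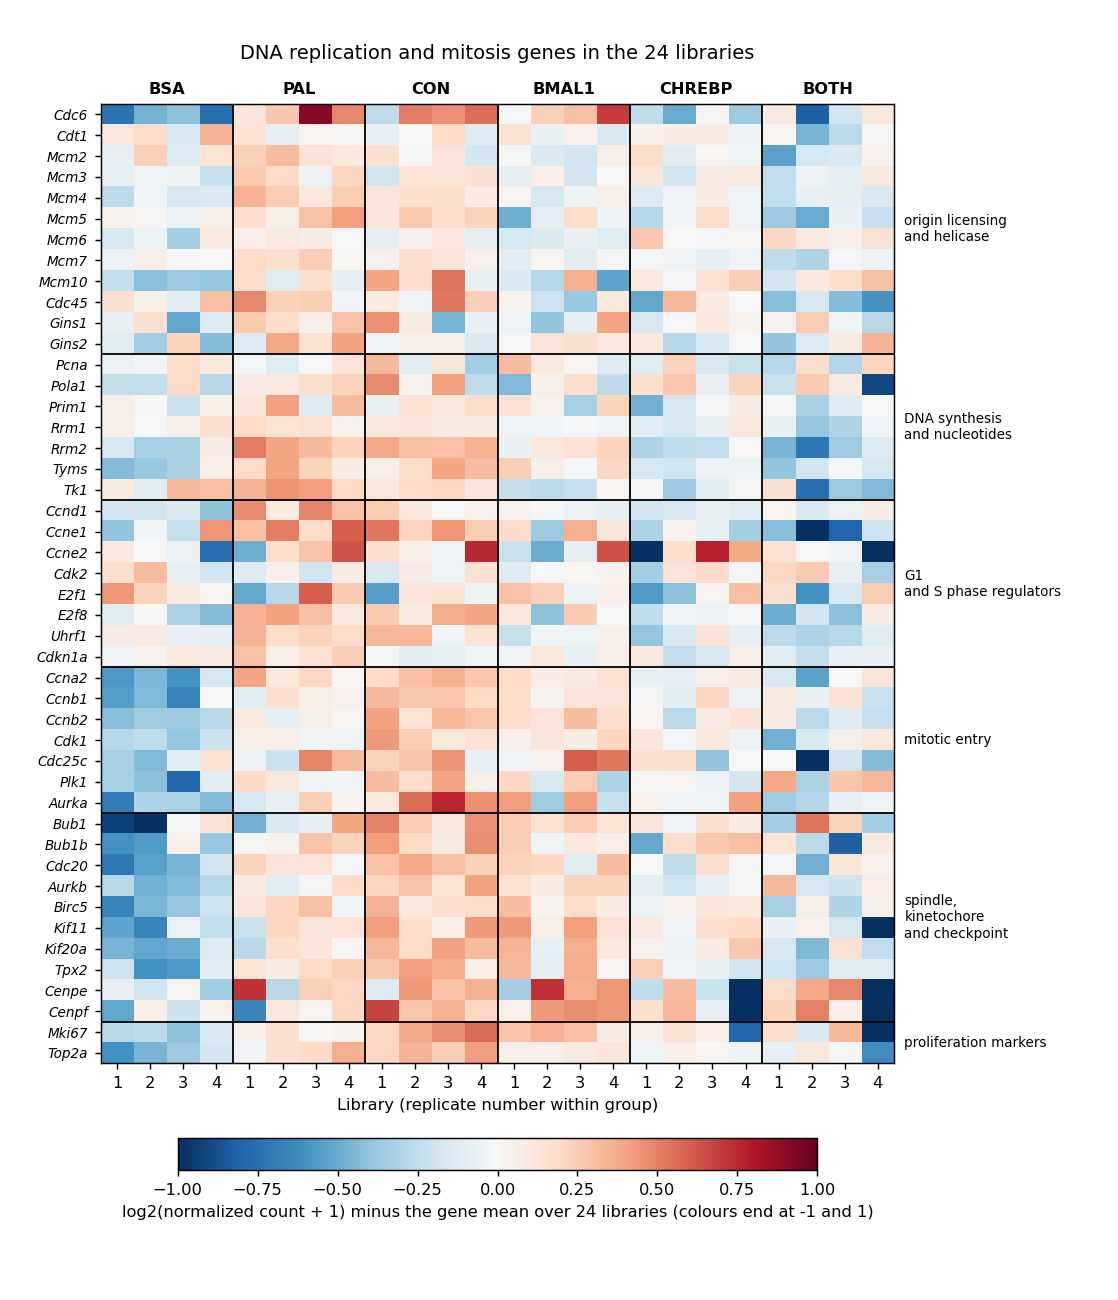
Level of each of the 46 genes (rows, by role) in each of the 24 libraries (columns, by group and replicate number), as log2(normalized count + 1) minus the mean of that gene over all libraries. Most rows are lowest (blue) in BSA or BOTH and highest (red) in PAL or CON, and *Cenpe*, *Cenpf* and *Mki67* are low in replicate 4 of CHREBP and of BOTH.

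Promoter windows from RefSeq (build GRCm38.p6, 250 bases before to 50 bases after the transcription start) were matched for 36 of the 46 genes, which have 39 windows. They were searched on both strands for the CHR element (TTTGAA), the NF-Y bound CCAAT box (CCAAT) and 4 spellings of the E2F site (TTTCCCGC, TTTGGCGC, TTTCGCGC and TTTGCCGC). The 12 windows of the mitotic entry and spindle genes held a CHR element in 8 cases, or 66.7%, against 17.9% of all 32851 windows. In the 17 windows of the licensing and DNA synthesis genes, 2 held it, or 11.8%. The E2F site was in 7 of the 17 licensing and DNA synthesis windows, or 41.2% (6 of 10 for licensing and 1 of 7 for DNA synthesis), and in 1 of the 12 mitotic entry and spindle windows, or 8.33%, against 2.26% of all windows. A CCAAT box was in 30 of the 39 member windows, or 76.9%, against 37.4% of all windows. These matches describe letters in the window and not binding. The windows of 3 genes are given 5′ to 3′ on the strand of the gene with matches in capitals, and show the motifs in a replication gene (*Mcm5*, a helicase subunit), in a mitosis gene (*Cdk1*, the mitotic kinase) and in the inhibitor *Cdkn1a*. *Cdk1* held the most kinds of motif among the mitosis genes. *Mcm5* held 2 kinds, as did *Mcm2*, *Mcm3*, *Mcm6*, *Mcm7*, *Cdc45* and *Pola1*, and was taken from these by its *P* in the likelihood ratio test among the transfected groups. 
Mcm5, chr8:75109259-75109558, + strand: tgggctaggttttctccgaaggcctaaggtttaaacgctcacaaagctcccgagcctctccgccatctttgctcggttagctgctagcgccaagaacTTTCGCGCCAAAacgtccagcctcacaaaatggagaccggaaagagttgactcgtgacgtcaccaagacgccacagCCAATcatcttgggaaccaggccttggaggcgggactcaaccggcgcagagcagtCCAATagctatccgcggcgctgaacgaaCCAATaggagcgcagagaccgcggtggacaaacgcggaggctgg
Cdk1, chr10:69352863-69353162, - strand: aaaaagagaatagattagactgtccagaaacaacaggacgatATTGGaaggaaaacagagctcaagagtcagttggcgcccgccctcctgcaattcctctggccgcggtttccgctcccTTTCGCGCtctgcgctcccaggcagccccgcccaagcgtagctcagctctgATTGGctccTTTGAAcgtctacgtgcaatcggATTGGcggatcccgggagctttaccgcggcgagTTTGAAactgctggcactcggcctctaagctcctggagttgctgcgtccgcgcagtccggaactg
Cdkn1a, chr17:29090729-29091028, + strand: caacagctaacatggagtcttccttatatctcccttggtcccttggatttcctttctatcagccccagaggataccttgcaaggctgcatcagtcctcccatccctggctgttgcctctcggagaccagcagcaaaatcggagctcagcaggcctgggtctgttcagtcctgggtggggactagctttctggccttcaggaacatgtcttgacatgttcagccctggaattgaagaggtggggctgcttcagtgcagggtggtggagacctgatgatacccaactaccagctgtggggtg
The *Mcm5* window held 3 CCAAT boxes and 2 E2F matches on opposite strands that overlap each other. The *Cdk1* window held 2 CHR elements, 3 CCAAT boxes and 1 E2F match. The *Cdkn1a* window, from the first of its 2 listed starts, held none of these letters.

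**Figure D2:**
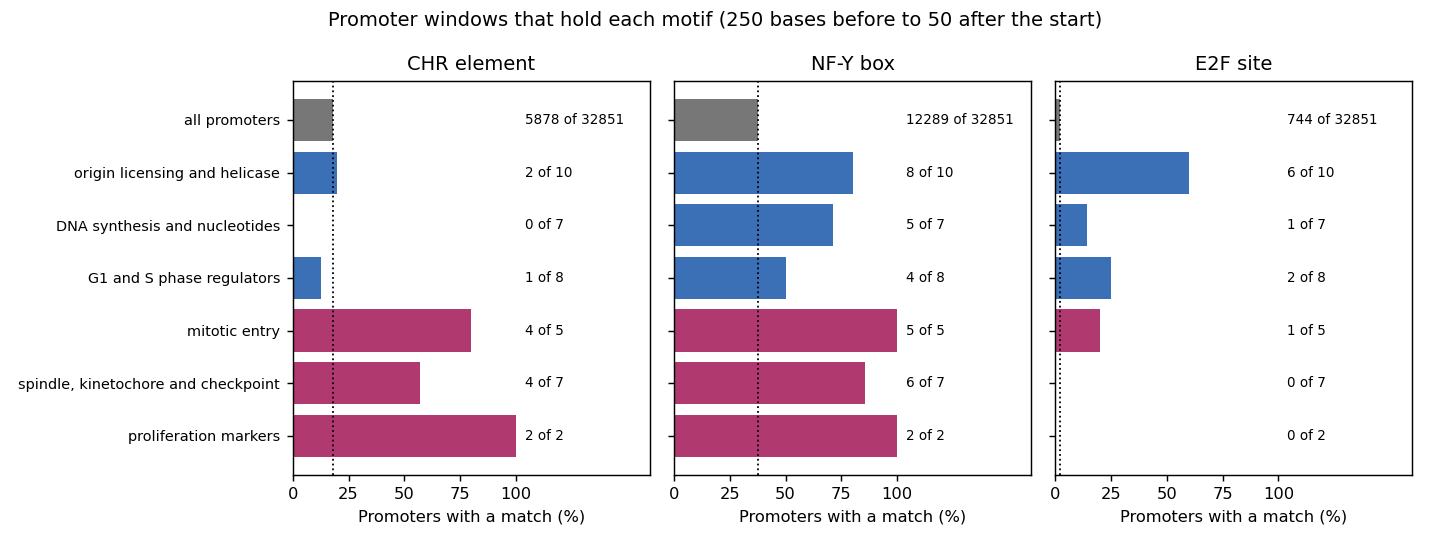
Share of promoter windows (horizontal axis, in percent) that hold each motif, for all RefSeq windows (grey), the replication and G1 roles (blue) and the mitotic roles (red), with the number of windows beside each bar. The dotted line is the share over all windows. The CHR element is in 4 of 5 mitotic entry windows, and the E2F site in 6 of 10 licensing and 1 of 7 DNA synthesis windows.

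The first comparison asks how palmitate alone changed these genes. Of the 46 genes, 24 were higher in PAL than in BSA and 0 were lower at *Padj* under 0.1 in DESeq2, where 6.65% of the 12827 genes tested were higher and 7.6% were lower. Mitotic genes made up most of the calls. The rise was seen in 6 of 7 mitotic entry genes, 7 of 10 spindle and checkpoint genes and both proliferation markers, and in 4 of 12 licensing, 2 of 7 DNA synthesis and 3 of 8 G1 and S phase genes. The median log2 fold change of the 46 genes was 0.37, against 0.00 over all genes tested. A positive value was found in 42 of 46, against 6507 of the 12827 genes tested. The count was 19 to 23 when any single library was left out.

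Among the licensing genes, the largest change was in *Cdc6*, which loads the helicase at origins. *Cdc6* was counted at 40.3, 48.4, 50.5 and 39.6 in the BSA libraries and at 73.9, 81.5, 127 and 94.8 in the PAL libraries. Every PAL library lay above every BSA library, and the log2 fold change was 1.08 ± 0.22 (SE, *Padj* = 3.2e-05). *Mcm4*, a helicase subunit, was counted at 395, 457, 421 and 426 in BSA and at 601, 563, 509 and 562 in PAL, also without overlap, with a log2 fold change of 0.40 ± 0.09 (SE, *Padj* = 0.000148). *Mcm3* and *Mcm7*, helicase subunits as well, rose by less, with log2 fold changes of 0.26 ± 0.09 (SE, *Padj* = 0.0465) and 0.16 ± 0.07 (SE, *Padj* = 0.0989), and in both genes the groups overlapped. The call of *Mcm3* was lost without any of 5 of the 8 libraries, and that of *Mcm7* without any of 7 of the 8 and in edgeR. *Mcm7* overlaps the microRNA genes *Mir25*, *Mir93* and *Mir106b* on the same strand and *Cops6* and *Ap4m1* on the other. Any reads shared with these genes cannot be told apart. *Mcm5* and *Mcm6* did not pass the test, with log2 values of 0.24 ± 0.11 (SE, *Padj* = 0.169) and 0.18 ± 0.08 (SE, *Padj* = 0.139). The lowest value of the role was that of *Cdt1*, the partner of CDC6, at -0.10 (*Padj* = 0.593).

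In DNA synthesis, the 2 genes that rose were *Rrm2* and *Tyms*. *Rrm2* (ENSMUSG00000020649, chr12:24708241-24714146, + strand, GRCm38), the regulated small subunit of ribonucleotide reductase, was counted at 585, 514, 518 and 682 in BSA and at 927, 855, 815 and 761 in PAL. The groups did not overlap and the log2 fold change was 0.56 ± 0.09 (SE, *Padj* = 1.83e-07). *Tyms*, thymidylate synthase, was counted at 221, 230.2, 239 and 313 in BSA and at 342, 394, 349 and 315 in PAL. It too was higher in all PAL libraries, with a log2 fold change of 0.50 ± 0.12 (SE, *Padj* = 0.000732). *Rrm1*, the large reductase subunit, and *Tk1*, thymidine kinase, had log2 values of 0.07 ± 0.07 (SE, *Padj* = 0.608) and 0.20 ± 0.10 (SE, *Padj* = 0.232). *Pcna*, the sliding clamp of the polymerases, was at -0.04 (*Padj* = 0.922).

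Of the 8 regulators of G1 and S phase, *Ccnd1*, *E2f8* and *Uhrf1* rose. *Ccnd1*, the G1 cyclin that responds to growth signals, was counted at 8904, 8866, 9184 and 7689 in BSA and at 14068, 10832, 14289 and 12474 in PAL. The groups did not overlap, and the log2 fold change of 0.58 ± 0.08 (SE, *Padj* = 8.86e-12) had the lowest *Padj* of the 46 genes. *E2f8*, a repressive E2F factor, was counted at 118, 128, 103 and 94.8 in BSA and at 164, 170.0, 159 and 138 in PAL, all above BSA, with a log2 fold change of 0.50 ± 0.15 (SE, *Padj* = 0.013). *Uhrf1*, which maintains DNA methylation behind the replication fork, rose by 0.24 ± 0.09 on the log2 scale (SE, *Padj* = 0.0716), and the call was lost without any of 5 of the 8 libraries. *Ccne1*, cyclin E1, was counted at 52.2, 67.7, 58.6 and 93.4 in BSA and at 84.5, 98.6, 78.3 and 105 in PAL. These overlapped and the log2 value of 0.47 ± 0.20 (SE, *Padj* = 0.133) did not pass the test. *E2f1*, an activating E2F factor, had a log2 value of -0.11 ± 0.24 (SE, *Padj* = 0.862). *Cdkn1a*, the CDK inhibitor p21, was counted at 552, 578, 603 and 599.8 in BSA and at 690.4, 587, 624 and 669 in PAL, with a log2 value of 0.15 ± 0.08 (SE, *Padj* = 0.277).

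Of the mitotic entry and spindle genes, *Cdc25c* (*Padj* = 0.286), *Cenpe* (*Padj* = 0.189), *Bub1* (*Padj* = 0.455) and *Cenpf* (*Padj* = 0.782) did not pass the test with palmitate, and the others were higher. *Ccna2*, cyclin A2, was counted at 380.3, 413, 375 and 505 in BSA and at 747, 612, 654 and 576 in PAL, with a log2 fold change of 0.64 ± 0.10 (SE, *Padj* = 5.6e-08). *Ccnb2*, a mitotic B-type cyclin, was counted at 441, 464, 462 and 488 in BSA and at 629.7, 553, 618 and 597 in PAL, with a log2 fold change of 0.38 ± 0.08 (SE, *Padj* = 0.000148). For both cyclins every PAL library was above every BSA library. *Ccnb1*, the other B-type cyclin, rose by 0.45 ± 0.12 on the log2 scale (SE, *Padj* = 0.00456), but BSA replicate 4, at 390, reached into the PAL range. *Aurka*, the kinase of centrosome maturation, rose by 0.46 ± 0.18 on the log2 scale (SE, *Padj* = 0.0774), and the call was lost when any of 6 of the 8 libraries was left out. The calls of *Bub1b* and *Kif11* were also lost without some single libraries, and that of *Plk1* without BSA replicate 3. Under a block for the replicate number, the calls of *Aurka*, *Bub1b*, *Kif11* and *Cdk1* were lost. *Cdc20*, which activates the anaphase-promoting complex, was counted at 233, 263, 278 and 335 in BSA and at 448, 418, 423 and 381 in PAL, a log2 fold change of 0.60 ± 0.11 (SE, *Padj* = 2.43e-06). Both subunits of the chromosomal passenger complex on the list rose, *Birc5* (survivin) by 0.59 ± 0.12 on the log2 scale (SE, *Padj* = 3.09e-05) and the kinase *Aurkb* by 0.42 ± 0.11 on the log2 scale (SE, *Padj* = 0.00277). The spindle factors *Tpx2* and *Kif20a* rose by 0.54 ± 0.13 on the log2 scale (SE, *Padj* = 0.000838) and 0.44 ± 0.13 on the log2 scale (SE, *Padj* = 0.0115).

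Both proliferation markers rose. *Top2a*, the topoisomerase that untangles sister chromatids, was counted at 441, 486, 520.3 and 587 in BSA and at 656, 747, 765 and 863 in PAL, a log2 fold change of 0.59 ± 0.10 (SE, *Padj* = 1.23e-07). *Mki67*, which encodes the Ki-67 antigen, was counted at 247, 249.5, 226 and 267 in BSA and at 310.2, 335, 302 and 308 in PAL, a log2 fold change of 0.35 ± 0.11 (SE, *Padj* = 0.0111), and this call was lost with all 24 libraries in the fit. In neither gene did the groups overlap. Summed over the 46 genes, the members took 0.309 ± 0.00182% of all reads in BSA and 0.401 ± 0.0215% in PAL (SD, n = 4).

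Control transfection on top of palmitate left most of the 46 genes below the threshold. In CON against PAL, 2 genes were higher and 2 were lower, where 1.59% of 12928 genes were higher and 0.92% were lower. *Ccnb2* was counted at 783, 651, 746 and 718 in CON and was higher by 0.27 ± 0.08 on the log2 scale (SE, *Padj* = 0.0403), and *Mki67*, at 347, 389, 415 and 445 in CON, was higher by 0.34 ± 0.10 on the log2 scale (SE, *Padj* = 0.0339). *Ccnd1*, at 12101, 11003, 10206 and 10395 in CON, overlapped PAL, and its log2 fold change of -0.24 ± 0.08 (SE, *Padj* = 0.0651) passed the test. *Cdkn1a*, at 557, 522, 536 and 553 in CON, lay below all PAL libraries, with a log2 fold change of -0.25 ± 0.08 (SE, *Padj* = 0.0651). Each of these 4 calls was lost without some single libraries. The count was 0 without PAL replicate 4, CON replicate 3 or CON replicate 4, 1 without PAL replicate 3 or CON replicate 2, and 2 without PAL replicate 1. The median log2 value was 0.22 in the mitotic entry genes and -0.08 in the licensing genes.

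**Figure D3:**
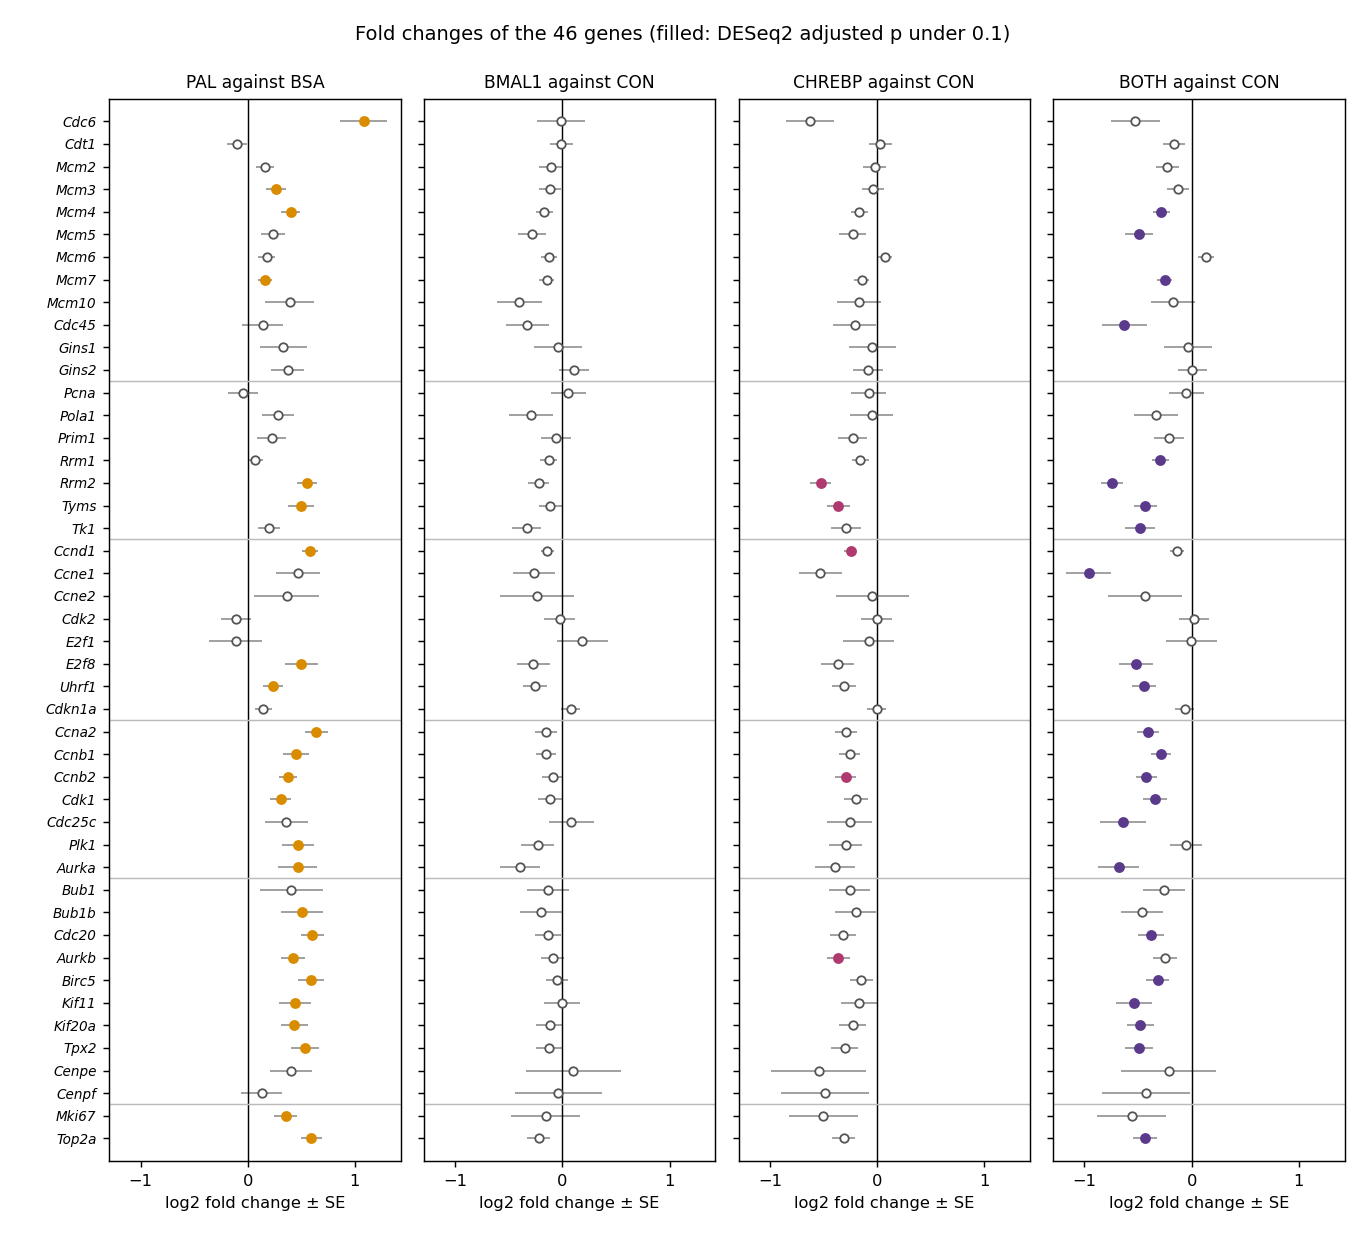
Log2 fold change ± SE of each of the 46 genes (rows, in the order of the roles, grey lines between roles) in 4 comparisons, with filled points for DESeq2 adjusted p under 0.1. Palmitate against carrier gives 24 filled points to the right of 0, and BOTH against CON gives 23 to the left.

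The effect of the silencing was then examined against the control esiRNA. With *Bmal1* esiRNA alone, 0 of the 46 genes passed the test in DESeq2, against 0.166% of 13883 genes higher and 0.324% lower. At an unadjusted *P* under 0.05 there were 9 members, all with negative values, against 864 of the 13883 genes tested. In edgeR 0 members were called as well. With only the CON and BMAL1 libraries in the fit 1 gene was called, *Tk1*, which was counted at 443, 469, 472 and 444 in CON and at 348, 341, 349 and 414 in BMAL1. These groups did not overlap, and the log2 value in the fit of all 16 transfected libraries was -0.33 ± 0.14 (SE, *Padj* = 0.454). The median over the 46 genes was -0.13 and 40 of 46 values were negative, against 51.1% negative values over all genes tested. BMAL1 received 100 nM esiRNA and CON 200 nM, so dose differed as well.

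With *Chrebp* esiRNA alone, 5 genes were lower and 0 were higher, where 0.771% of all genes were lower and 2.65% were higher. *Rrm2* was counted at 846, 802, 797 and 824 in CON and at 528, 546, 547 and 652 in CHREBP, without overlap, and fell by 0.53 ± 0.10 on the log2 scale (SE, *Padj* = 2.73e-05). *Tyms* was counted at 312, 338, 393 and 371 in CON and at 265, 261, 288 and 289 in CHREBP, with a log2 fold change of -0.36 ± 0.10 (SE, *Padj* = 0.0223). *Aurkb*, at 365, 383, 346 and 415 in CON and 296, 274, 297 and 310.1 in CHREBP, had a log2 fold change of -0.36 ± 0.11 (SE, *Padj* = 0.035). All 3 were lower in every CHREBP library than in every CON library. *Ccnd1* was counted at 8831, 9052, 9647 and 9365 in CHREBP, below all CON libraries, a log2 fold change of -0.25 ± 0.06 (SE, *Padj* = 0.00605). *Ccnb2* fell by 0.29 ± 0.10 on the log2 scale (SE, *Padj* = 0.0829), with 1 CHREBP library inside the CON range. *Mki67* was counted at 311, 331, 313 and 173 in CHREBP. Each lay below every CON library, but replicate 4 stood far below the rest and the log2 value of -0.50 ± 0.32 (SE, *Padj* = 0.623) did not pass the test. The median log2 value of the 46 genes was -0.23, against 0.00 over all genes tested, with 44 of 46 negative, against 50.9% over all genes tested. The calls of *Rrm2* and *Ccnd1* were kept without any single library, while those of *Tyms*, *Aurkb* and *Ccnb2* were lost without some. The count depended on single libraries. It was 2 without CON replicate 4, CHREBP replicate 1 or CHREBP replicate 2, it was 9 without CHREBP replicate 3 or BOTH replicate 2, and it was 12 without BOTH replicate 4. With only the CON and CHREBP libraries in the fit it was 12 as well. Over all genes, 203 of 13811 were lower without BOTH replicate 4 and 157 of 13760 without BOTH replicate 2. With only CON and CHREBP in the fit, 184 of 13019 genes were lower. CON received 200 nM esiRNA and CHREBP 100 nM, so dose also differed here.

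Silencing both genes gave the largest count of lower members. In BOTH against CON, at equal esiRNA dose, 23 of the 46 genes were lower and 0 were higher, where 3.75% of 13883 genes were lower and 5.99% were higher. Row and column of the libraries both differed between these groups. The genes that fell were 6 of 7 for mitotic entry, 5 of 10 for spindle and checkpoint, 4 of 7 for DNA synthesis, 4 of 12 for licensing, 3 of 8 for G1 and S phase, and 1 of the 2 proliferation markers. The median log2 fold change was -0.34, against -0.01 over all genes tested. Negative values were found in 43 of 46 members, against 52.4% of all genes tested. The count was 20 to 26 when any single library was left out, 20 without BOTH replicate 2 and 26 without BOTH replicate 4.

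In DNA synthesis the fall was steepest for *Rrm2*. *Rrm2* was counted at 471, 393, 507 and 590.5 in the BOTH libraries, all below the lowest CON library at 797, and its log2 fold change of -0.74 ± 0.10 (SE, *Padj* = 7.12e-11) had the lowest *Padj* of the 46 genes. *Tyms*, at 228, 262, 296 and 264 in BOTH, fell by 0.43 ± 0.11 on the log2 scale (SE, *Padj* = 0.00118) without overlap with CON. *Rrm1* was counted at 1058, 1067, 1038 and 1041 in CON and at 936, 752, 798 and 954 in BOTH, a log2 fold change of -0.29 ± 0.08 (SE, *Padj* = 0.00521). Both reductase subunits and thymidylate synthase were thus lower in each BOTH library than in any CON library. *Tk1*, at 458, 241, 315 and 301 in BOTH, fell by 0.48 ± 0.14 on the log2 scale (SE, *Padj* = 0.00964), although BOTH replicate 1, at 458, lay inside the CON range. *Pcna* and *Prim1*, a primase subunit, had log2 values of -0.05 and -0.21, and neither passed the test.

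In the helicase role, *Mcm4*, *Mcm5*, *Mcm7* and *Cdc45* fell. *Mcm5* was counted at 271, 299, 281 and 293 in CON and at 194, 176, 238 and 212 in BOTH, a log2 fold change of -0.49 ± 0.13 (SE, *Padj* = 0.00454). *Mcm4*, at 515, 528, 529 and 501 in CON and 397, 445, 442 and 421 in BOTH, fell by 0.28 ± 0.08 on the log2 scale (SE, *Padj* = 0.00831). *Mcm7*, at 1452, 1588, 1539.8 and 1455 in CON and 1183, 1146, 1392 and 1360.5 in BOTH, fell by 0.25 ± 0.07 on the log2 scale (SE, *Padj* = 0.00584). For these 3 subunits BOTH lay wholly below CON. *Mcm6*, a subunit of the same ring, had a positive value, at 1688, 1868, 1935 and 1693 in CON and 2079.7, 1924, 1885 and 1999.9 in BOTH. Its log2 value of 0.13 ± 0.07 (SE, *Padj* = 0.337) did not pass the test in this comparison. *Mcm3* had a log2 value of -0.13 ± 0.10 (SE, *Padj* = 0.597), and *Cdc6*, the licensing gene that rose most with palmitate, of -0.52 ± 0.23 (SE, *Padj* = 0.163).

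Cyclin E1 had the lowest log2 fold change of the 46 genes in this comparison. *Ccne1* (ENSMUSG00000002068, chr7:38097984-38107534, - strand) was counted at 99.6, 80.2, 93.8 and 82.3 in CON, at 78.7, 53.1, 89.1 and 74.9 in BMAL1, at 55.4, 70.6, 65.5 and 54.3 in CHREBP and at 50.9, 33.6, 39.3 and 59.5 in BOTH. All BOTH libraries lay below all CON libraries, and the log2 fold change was -0.96 ± 0.21 (SE, *Padj* = 0.000114). *E2f8*, at 154, 137, 166 and 169 in CON and 90.7, 113, 95.9 and 135 in BOTH, fell by 0.52 ± 0.16 on the log2 scale (SE, *Padj* = 0.016), and *Uhrf1*, at 505, 506, 389 and 444 in CON and 334, 324, 331 and 368 in BOTH, fell by 0.45 ± 0.11 on the log2 scale (SE, *Padj* = 0.00191). *E2f1* was counted at 35.9, 58.0, 58.4 and 51.0 in CON and 59.7, 34.5, 47.4 and 63.4 in BOTH, a log2 value of 0.00 ± 0.24 (SE, *Padj* = 0.999). *Ccnd1* was counted at 10293, 9165, 9749 and 10680.1 in BOTH, overlapping CON, with a log2 value of -0.13 ± 0.06 (SE, *Padj* = 0.227). *Cdkn1a*, at 524, 478, 537 and 536 in BOTH, had a log2 value of -0.07 ± 0.09 (SE, *Padj* = 0.786).

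Of the mitotic entry genes, *Plk1*, the polo-like kinase, was the 1 not called, with a log2 value of -0.05 ± 0.15 (SE, *Padj* = 0.917). *Ccna2* was counted at 652, 701, 726 and 687 in CON and at 511, 391, 569 and 620.2 in BOTH, and fell by 0.41 ± 0.10 on the log2 scale (SE, *Padj* = 0.00225). *Ccnb2*, at 626, 494, 542 and 504 in BOTH, was below all CON libraries, a log2 fold change of -0.42 ± 0.10 (SE, *Padj* = 0.000551). *Ccnb1* and *Cdk1* fell, with log2 fold changes of -0.29 ± 0.09 (SE, *Padj* = 0.0371) and -0.34 ± 0.11 (SE, *Padj* = 0.0356). *Aurka*, at 109.5, 151, 174 and 140.3 in CON and 79.6, 83.1, 97.0 and 99.9 in BOTH, had a log2 fold change of -0.68 ± 0.19 (SE, *Padj* = 0.00647). *Cdc25c*, the phosphatase that activates CDK1, was counted at 97.8, 102, 114 and 78.8 in CON and at 83.0, 38.0, 72.8 and 61.4 in BOTH, and fell by 0.64 ± 0.22 on the log2 scale (SE, *Padj* = 0.0408) with overlap.

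Among spindle genes, *Kif20a* was counted at 312, 281, 328 and 309.5 in CON and at 222, 181, 276 and 209 in BOTH, and fell by 0.48 ± 0.13 on the log2 scale (SE, *Padj* = 0.00399). *Tpx2*, at 272, 300.1, 292 and 234 in CON and 196, 175, 207 and 209 in BOTH, fell by 0.49 ± 0.13 on the log2 scale (SE, *Padj* = 0.0031). In neither gene did the BOTH libraries overlap CON. *Cdc20* and *Birc5* fell, with log2 fold changes of -0.38 ± 0.12 (SE, *Padj* = 0.0323) and -0.32 ± 0.11 (SE, *Padj* = 0.0451). *Kif11*, the motor that separates spindle poles, was counted at 249.6, 208, 195 and 252 in CON and at 178, 193, 165 and 87.4 in BOTH, and fell by 0.54 ± 0.17 on the log2 scale (SE, *Padj* = 0.0255), with BOTH replicate 4 far below the others. Without that library the log2 fold change of *Kif11* was -0.33, against CON and against BMAL1 alike. *Top2a*, at 774, 850.4, 795 and 894 in CON and 634, 723, 661 and 435 in BOTH, fell by 0.44 ± 0.11 on the log2 scale (SE, *Padj* = 0.0015). *Mki67* was counted at 341, 269.6, 377 and 97.0 in BOTH. Replicate 4 was again the lowest, BOTH overlapped CON, and the log2 value of -0.56 ± 0.32 (SE, *Padj* = 0.363) did not pass the test. Among the 23 calls, 22 were kept without BOTH replicate 4, *Ccnb1* being lost, and 20 were kept without BOTH replicate 2. The calls of *Ccnb1*, *Cdk1*, *Cdc25c*, *Cdc20*, *Birc5*, *Kif11* and *Cdc45* were each lost without at least 1 library. The kinetochore genes *Cenpe* and *Cenpf* were also lowest in replicate 4, with *Cenpe* at 109.5, 126, 135 and 27.8 and *Cenpf* at 137, 166, 122 and 31.7 in BOTH.

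**Figure D4:**
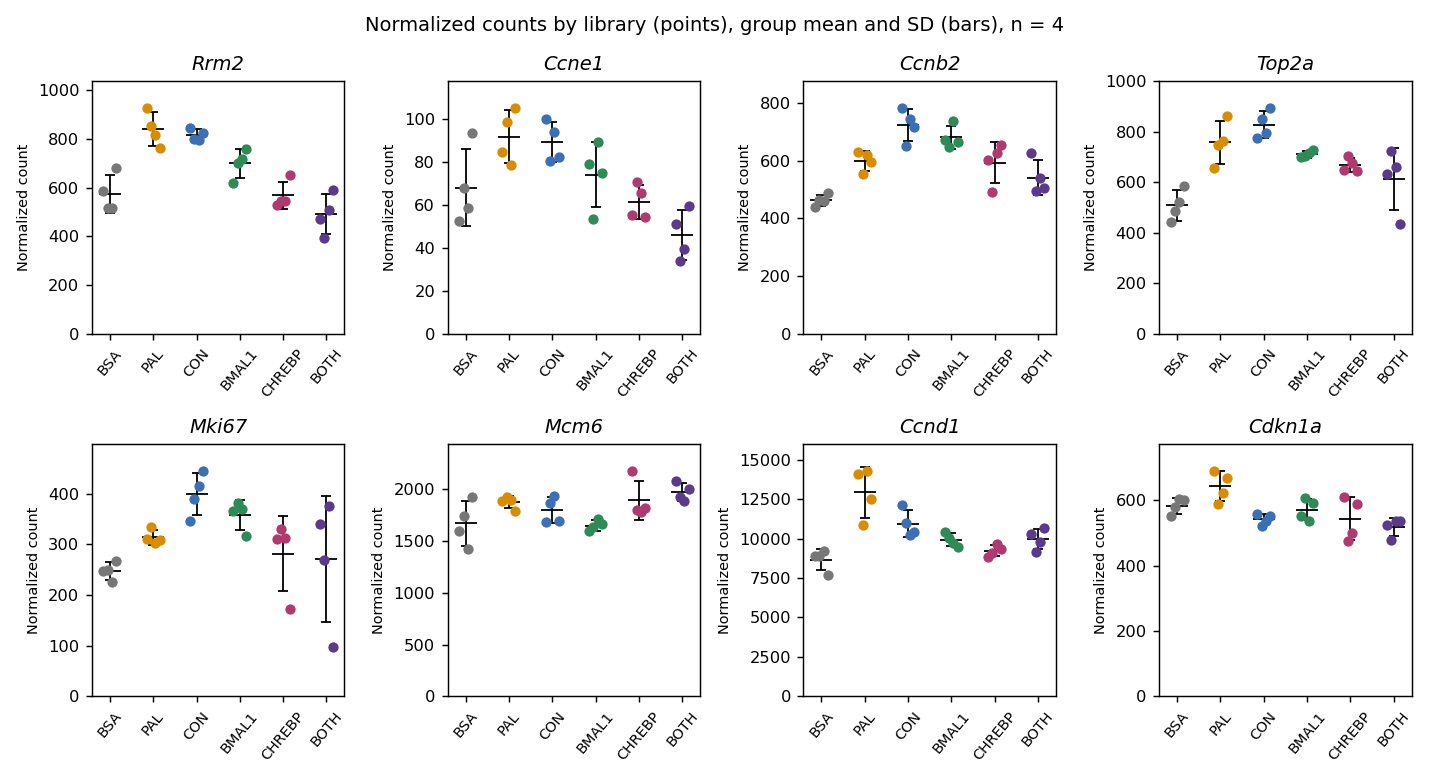
Normalized count of 8 genes (vertical axes, each from 0) in every library (points) by group, with the group mean and SD (bars, n = 4). *Rrm2*, *Ccne1*, *Ccnb2* and *Top2a* are lower in BOTH than in CON, *Mcm6* and *Cdkn1a* were not called in that comparison, and replicate 4 of CHREBP and of BOTH stands low for *Mki67*.

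Direct comparisons of BOTH with each single silencing were then made. Against CHREBP, 0 genes passed the test in DESeq2 and in edgeR, where 0.843% of all genes were higher and 0.151% were lower in DESeq2. An unadjusted *P* under 0.05 was found for 4 members, against 1028 of 13883 genes tested. The lowest *P* were those of *Kif11*, at a log2 value of -0.37, *Rrm2* at -0.21 and *Ccne1* at -0.43. Single libraries moved these values. That of *Kif11* was -0.17 without BOTH replicate 4, and without BOTH replicate 2 that of *Rrm2* was -0.12 and that of *Ccne1* -0.30. The count was 1 without BOTH replicate 1 or BOTH replicate 4. Against BMAL1, 8 genes were lower (*Rrm2*, *Tyms*, *Ccne1*, *Cdc25c*, *Ccnb2*, *Kif11*, *Kif20a* and *Tpx2*) and 1 was higher, where 4.08% of all genes were lower and 6.35% were higher. *Rrm2*, at 620.4, 700.2, 719 and 758 in BMAL1, had a log2 fold change of -0.52 ± 0.10 (SE, *Padj* = 2.39e-05). *Ccnb2*, at 672, 648, 739 and 664 in BMAL1, had a log2 fold change of -0.34 ± 0.10 (SE, *Padj* = 0.0126). The higher gene was *Mcm6*, at 1592, 1632, 1709 and 1660.3 in BMAL1, all below every BOTH library, with a log2 fold change of 0.26 ± 0.07 (SE, *Padj* = 0.00827). Of these calls, those of *Rrm2*, *Ccnb2* and *Mcm6* were kept without any single library. Without BMAL1 replicate 3, the count was 4, and with only the BMAL1 and BOTH libraries in the fit it was 5. BOTH received 200 nM esiRNA and each single silencing 100 nM, and BMAL1 was in column 2 and BOTH in column 3, so dose in these comparisons, and the column against BMAL1, cannot be told apart from the added esiRNA. Rows differed between BOTH and CHREBP.

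Whether the 2 silencings acted on these genes other than by adding up on the log2 scale was tested with an interaction term. CON and BOTH received the higher total esiRNA dose and each single silencing the lower one. An effect of dose thus does not cancel in this term and cannot be told apart from an interaction of the silencings. The interaction test called 0 of the 46 genes in DESeq2 and in edgeR, where 1.47% of all genes were called in DESeq2. An unadjusted *P* under 0.05 was found for 2 members, against 1079 of 13883 genes tested. The lowest *P* was that of *Ccnd1*, whose log2 interaction of 0.25 ± 0.09 (SE, *Padj* = 0.184) was positive. Without BOTH replicate 2 the count was 2. A likelihood ratio test for any difference among the 4 transfected groups called 24 of the 46 genes, where 9.92% of all genes were called, and *Rrm2* had the lowest *Padj* of the members, at 2.87e-11. That count rested on the CON libraries and on the tool. It was 14, 12, 13 and 15 without CON replicates 1, 2, 3 and 4, and 12 in edgeR.

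Palmitate against carrier and BOTH against CON share no library, so their calls can be set side by side. Of the 24 members higher in PAL, 17 were lower in BOTH, or 70.8% of the first list and 73.9% of the 23 in the second. Over all genes, 127 of the 853 higher in PAL were lower in BOTH, or 14.9%, and these were 24.4% of the 520 lower in BOTH. Of all 46 members, 23, or 50%, were lower in BOTH, so the overlap follows in part from the number of calls in each comparison. Whether it went beyond that number was not tested. Among the 7 called with palmitate but not in BOTH were *Ccnd1*, *Cdc6*, *Aurkb* and *Plk1*, and among the 6 called in BOTH alone were *Ccne1*, *Mcm5*, *Rrm1* and *Tk1*. Whether those genes differed between the comparisons was not tested. By group means, 25 members were lowest in BSA and 15 in BOTH, while 21 were highest in CON and 18 in PAL. The mean log2(normalized count + 1) over the 46 genes was 7.77 ± 0.06 in BSA and 7.81 ± 0.07 in BOTH (SD, n = 4). It was 7.93 ± 0.05 in CHREBP and 8.03 ± 0.05 in BMAL1, and it was highest in PAL at 8.11 ± 0.04 and in CON at 8.16 ± 0.02.

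**Figure D5:**
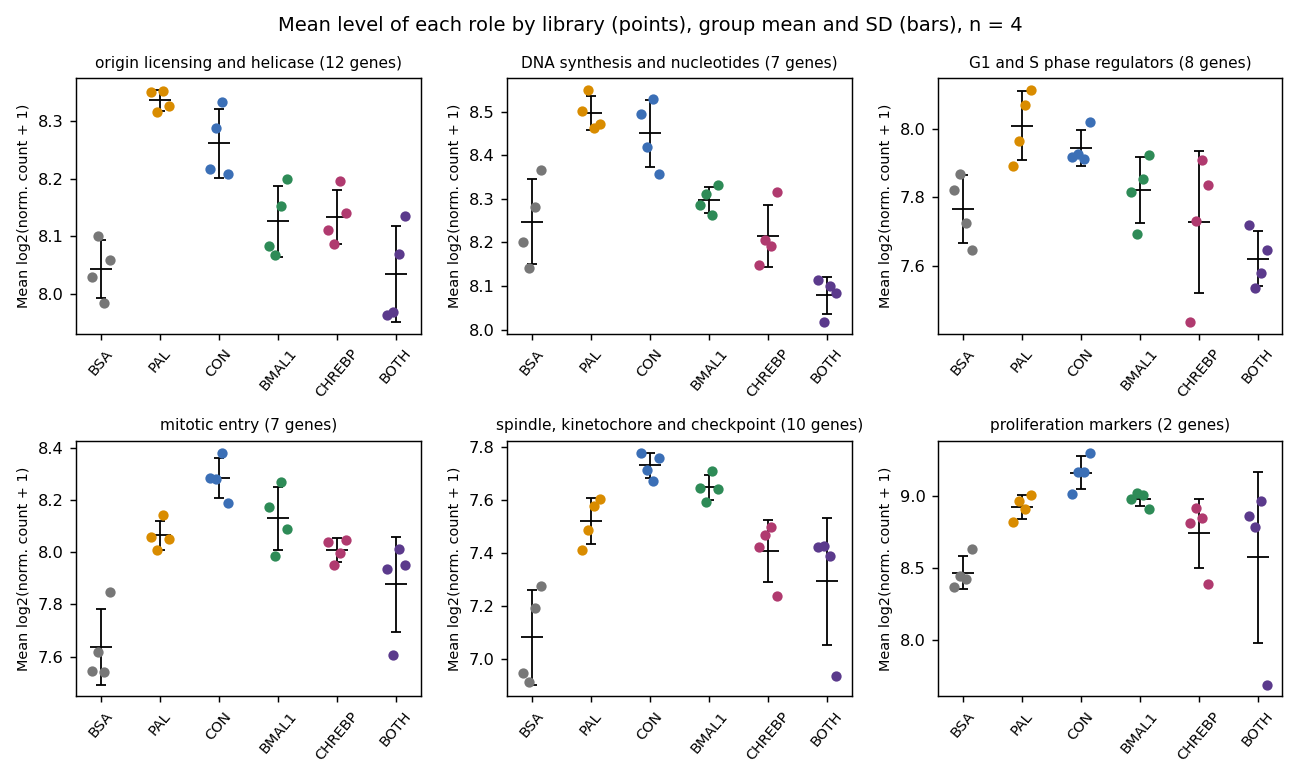
Mean log2(normalized count + 1) of the genes of each role (vertical axes, not starting at 0) in each library (points) by group, with the group mean and SD (bars, n = 4). In DNA synthesis BOTH has the lowest mean at 8.08, whereas in mitotic entry BSA does at 7.64 and BOTH lies at 7.88.

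Related genes outside the 46 were counted in the same fits, where 6.65% of all genes were higher and 7.6% lower in PAL, and 5.99% were higher and 3.75% lower in BOTH against CON. Of 37 other mitosis genes, 18 were higher in PAL and 0 lower, and 15 were lower and 1 higher in BOTH against CON, among them the condensin subunit *Ncapg* at a log2 fold change of -0.89 ± 0.21 (SE, *Padj* = 0.000754) and the kinetochore gene *Spc25* at -0.82 ± 0.18 (*Padj* = 0.000242). Of 32 other replication genes, 7 were higher in PAL, and 4 were lower in BOTH against CON, including the polymerase *Pole* at a log2 fold change of -0.62 ± 0.15 (*Padj* = 0.0015) and the S phase kinase subunit *Dbf4* at -0.54 ± 0.14 (*Padj* = 0.00242). The other E2F, RB and CDK regulators, of which 24 of 25 were tested, gave 4 higher and 1 lower in PAL, and 3 higher and 1 lower in BOTH against CON. *Myc*, a growth-promoting transcription factor, was higher in BOTH by 0.51 ± 0.06 on the log2 scale (*Padj* = 6.58e-15). *Cdkn2b*, an inhibitor of CDK4 and CDK6, had a log2 fold change of 0.38 ± 0.09 in PAL against BSA (*Padj* = 0.000315) and of -0.44 ± 0.09 in BOTH against CON (*Padj* = 3.39e-05). Of 16 p53 targets, 3 were higher and 1 lower in PAL, with *Ccng1* at a log2 fold change of 0.77 ± 0.07 (*Padj* = 3.46e-26) and *Mdm2*, the ubiquitin ligase of p53, at 0.45 ± 0.07 (*Padj* = 1.00e-09), and 2 were higher and 2 lower in BOTH against CON. The median log2 value in BOTH against CON was -0.38 in the other mitosis genes, -0.17 in the other replication genes, -0.04 in the other regulators and 0.05 in the p53 targets, against -0.01 over all genes tested.

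Interferon response genes and hepatocyte markers were measured beside the members. All 12 interferon response genes were higher in CHREBP and in BOTH against CON, where 2.65% and 5.99% of all genes were higher. In CON against PAL 9 of the 10 tested were higher, where 1.59% of all genes were, and in BMAL1 against CON 6 of 12 were lower, where 0.324% of all genes were. Their summed level was 6025 to 10207 CPM in the BOTH libraries and 3121 to 6367 in CHREBP. In CON it was 118 to 1001, in BMAL1 135 to 210, in PAL 39.2 to 48.9 and in BSA 45.0 to 57.6. Of the 10 hepatocyte markers, 6 were lower and 2 higher in PAL against BSA, where 7.6% and 6.65% of all genes were, and 4 were lower and 0 higher in BOTH against CON, where 3.75% and 5.99% were. The part of either list in the levels of the 46 genes was not tested.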

How the data were processed

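RNA of 24 AML-12 libraries in 6 groups of 4, grouped by the sample labels, was sequenced on an Illumina NovaSeq instrument with a 3′ end method (BRB-seq, MERCURIUS kit). The authors demultiplexed the reads, aligned them to mm10 with STAR and deposited raw counts per gene, with HTSeq and featureCounts both named as counters. Versions, annotation release, strand setting and handling of molecular identifiers are not given in the sources used here. The table holds 5 lines that name no gene (not aligned 24.9% to 28.0% of a library's lines, no feature 5.11% to 6.47%), and these were left out of totals and tests.

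From these counts, log2 fold changes, SE and *Padj* (Benjamini-Hochberg) were computed with DESeq2 1.42.0 in R 4.3.3, the study's tool, by 2-sided Wald tests after genes summing to fewer than 25 reads were dropped, in 3 fits (PAL with BSA, PAL with CON, and the 16 transfected libraries, with a likelihood ratio test and an interaction term). A gene was called at *Padj* under 0.1 over all genes tested. Normalized counts used the size factors of all 24 libraries, and scores a pseudocount of 1. The tests of PAL against BSA and of BMAL1 against CON were also run on simulated counts with log2 changes of 1. Smaller changes, the other comparisons, the interaction and the likelihood ratio test were not simulated. Alternatives were edgeR 4.0.16 (quasi-likelihood), TMM size factors, no filter and a minimum of 100, no independent filtering, a replicate block, all 24 libraries or only 2 groups in the fit, and leaving out each library. Coordinates are from GENCODE M21 and promoter windows from RefSeq, both on GRCm38. Genes named with values were the 3 with the lowest *Padj* in PAL against BSA and the 3 in the likelihood ratio test of each role, plus *Cdkn1a*, *Ccnd1*, *Mki67*, *Top2a* and *E2f1*. Others were named after their values were seen. The members and the other gene lists were chosen with earlier results of these data known. Depth gives a floor of 3 reads, or 0.267 to 0.556 CPM by library, and covers counting error only. No 2 libraries of a group agreed within sampling noise.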

Additional observations from a re-analysis of the deposited data

Results flagged for a closer look

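In 13 of 204 groups of 4 libraries tested, 1 library stood apart from the other 3 by Dixon's criterion at 95%. Tested were the 27 genes named by the rule given above, the role means and the mean of all 46 genes. Chance alone flags about 1 in 20 such groups. CHREBP replicate 4 was apart for *Mki67*, at a normalized count of 173 against 311 to 331 in the other CHREBP libraries, for *Rrm2*, at 652 against 528 to 547, and for *Aurka*, at 135 against 99.6 to 105. BOTH replicate 4 was apart in the mean log2(normalized count + 1) of the spindle, kinetochore and checkpoint genes, at 6.93 against 7.39 to 7.43, and of the proliferation markers, at 7.69 against 8.79 to 8.97. CHREBP replicate 1 was apart for *Mcm6*, at 2177 against 1781 to 1817, and for *E2f8*, at 107 against 124 to 127, and CHREBP replicate 2 for *Mcm3*, at 381 against 464 to 477. CON replicate 1 was apart for *Cdc6*, at 56.6 against 92.9 to 99.7, and for *Mcm3*, at 382 against 477 to 492. CON replicate 4 was apart in the mean of the G1 and S phase regulators, at 8.02 against 7.91 to 7.93. BMAL1 replicate 4 was apart for *Tk1*, at 414 against 341 to 349, and BSA replicate 4 for *Kif20a*, at 225 against 173 to 179.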

How the results depend on the processing

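The counts of members called in PAL against BSA (24) and in BOTH against CON (23) stayed within 1.5 times under every alternative run and without any single library. Correlations between the deviations of same-numbered libraries over genes ranged from -0.0743 to 0.124, so the numbers were not taken as pairs. Between BOTH and CHREBP they averaged 0.0487, and 4 of 8 libraries correlated best with their own number. Under a block for the replicate number, the counts were 17 in PAL against BSA, 0 in CON against PAL, 6 in CHREBP against CON, 23 in BOTH against CON, 10 in BOTH against BMAL1 and 23 in the likelihood ratio test. With only 2 groups in the fit the counts were 1 in BMAL1 against CON, 12 in CHREBP against CON and 5 in BOTH against BMAL1. In edgeR the likelihood ratio count was 12. Without 1 library the counts ranged from 0 to 3 in CON against PAL, 2 to 12 in CHREBP against CON, 0 to 1 in BOTH against CHREBP, 4 to 12 in BOTH against BMAL1, 0 to 2 for the interaction and 12 to 26 in the likelihood ratio test. The cause was not tested. For the 27 genes named by the rule given above, none of the 55 calls changed sign. Of these calls, 36 were kept under every alternative and without any single library. Mean normalized counts were under 100 for 10 members, where counting error is largest relative to the level.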
